A study of Mus musculus with 7 samples.

Results

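Retinal antigen genes were examined in medullary thymic epithelial cells (mTECs) of mouse, the thymic cells that display proteins of peripheral tissues to developing T cells. With earlier results of these data known, the 8 genes were chosen by name out of the 55536 genes of the deposited expression table. They are Rbp3, Sag, Rcvrn, Opn1sw, Pde6a, Gnat1, Rlbp1 and Rpe65, and each is on a chromosome of its own. All 8 were found in the table. RNA came from freshly sorted EPCAM-positive mTECs and was read by SMART-seq, a chemistry that copies full-length transcripts from few cells. The 3 Cre-positive libraries had the genotype Cre(+) Ikzf1fl/fl Pou2f3-/-, and the 4 Cre-negative libraries had Cre(-) Ikzf1fl/fl Pou2f3-/-. Both groups therefore carried floxed Ikzf1, which encodes the factor Ikaros, and lacked functional Pou2f3, the factor that tuft cells require. The sources used here do not give the Cre driver, the floxed exon, the age of the animals or whether each library was 1 animal, and p-values therefore measure only how far these libraries spread, which may be technical. A library is called by its group and its label's number (Cre-positive 45, 76 and 80, and Cre-negative 46, 48, 75 and 77). The comparison asks how Ikaros affects mTEC expression in mice that lack Pou2f3.

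Rods and cones detect light through a G protein cascade. An opsin activates transducin, transducin activates a cGMP phosphodiesterase, arrestin shuts the signal off once rhodopsin kinase has marked the opsin, and recoverin holds that kinase back, while carrier proteins and enzymes of the retinoid cycle restore the chromophore with the help of the pigment epithelium. Several of these proteins are targets of autoimmune eye disease. Interphotoreceptor retinoid-binding protein (Rbp3) and S-antigen (Sag) provoke uveitis in animals immunized with them, and recoverin is an antigen of cancer-associated retinopathy. Thymic expression of Rbp3 in mice is known to depend on Aire, the regulator that lets mTECs express many tissue-restricted genes.

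In Cre-positive mTECs Rcvrn (recoverin) and Sag (rod arrestin) fell, and none of the 7 tested genes was called higher. Of the 7 genes with enough reads to test, these 2 were called lower by limma (Benjamini-Hochberg adjusted p under 0.05), beside 9.11% of all 22878 tested genes called lower. No member was called higher, beside 4.66% of all tested genes. At an unadjusted p under 0.05 there were 3 of the 7 members, Rcvrn, Sag and Rlbp1, beside 6506 of all 22878 tested genes, and DESeq2 and edgeR also called no member higher. The median log2 fold change of the 7 members was -1.42, against -0.10 for all tested genes, and 6 of the 7 were below 0, as were 54.7% of all tested genes. Among all tested genes the median was -0.64 for those with a mean of 5 to 20 normalized counts, -0.40 for those of 20 to 60 and -0.03 for those of 60 to 200. The count of 2 was 0 without Cre-negative 46 or Cre-positive 45 and 1 without each of the other 5 libraries in turn. Positions are on GRCm38. Fold changes here are differences of mean log2(normalized count + 1), Cre-positive minus Cre-negative, where normalized counts are the authors' counts divided by a size factor per library. In bulk RNA, fewer cells that express a gene and less RNA per cell cannot be told apart.

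Some facts of the libraries touch these results. Recovered totals ran from 11383465 to 11623062 reads in Cre-positive libraries and from 9815958 to 12599078 in Cre-negative libraries. Fewer genes had at least 10 reads in Cre-positive libraries (17169 to 18014) than in Cre-negative ones (19417 to 20467), and the part of this in the lower antigen values was not tested. The targeted gene Ikzf1 had 1310.3, 1828.6 and 1677.5 normalized counts in Cre-positive 45, 76 and 80, and 1118.7, 1149.5, 1146.8 and 1219.0 in Cre-negative 46, 48, 75 and 77 (limma adjusted p = 0.0916). These are sums over the whole gene, so they do not check whether the floxed part was removed. Pou2f3 had 0 to 17.8 normalized counts in Cre-positive and 1.8 to 27.9 in Cre-negative libraries (adjusted p = 0.413), which does not check the null allele either. Aire fell to 2689.8 to 3297.9 normalized counts in Cre-positive libraries, against 3694.0 to 5435.7 in Cre-negative ones (log2 fold change -0.56, limma adjusted p = 0.0395), and Fezf2, another regulator of tissue antigens, had a log2 fold change of 0.08 (adjusted p = 0.80). Of 8 mTEC markers, Epcam, Aire, Cd80, H2-Aa, Krt5, Krt14 and Fezf2 passed the filter on low values, while Ccl21a was listed at 0 in all 7 libraries, and the summed mTEC markers were 84686 to 113922 normalized counts in Cre-positive and 66167 to 116200 in Cre-negative libraries. Of the 7 tested mTEC markers, Krt5 and Krt14 were called higher and Aire and Cd80 lower, and the part of this in the antigen values was not tested. Summed levels of the fibroblast markers were 132.6 to 355.6 normalized counts in Cre-positive and 387.4 to 663.8 in Cre-negative libraries, with 2 of 4 called lower. Myeloid sums were 8014.7 to 11429 against 5479.6 to 7112.2, with 1 of 7 called in each direction, and cortical epithelial sums were 1615.1 to 2871.5 against 2722.3 to 4835.5, with 1 of 5 lower. Thymocyte, B cell, endothelial and erythroid sums overlapped between the groups, with 1 of the 5 B cell genes called lower and none of the other 3 lists' genes called. The part of these cells in the antigen values was not tested. Cre-negative 48 alone had reads of Y-linked genes (3938 normalized counts over 4 genes, against at most 1.0 in any other library), so the fits without it compare libraries without them.

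Per kilobase of merged exon, recoverin had the highest level of the 8 antigens in both groups. Rcvrn reached 5.17 ± 0.47 RPKM (recovered reads scaled to the kilobases of merged exon and to the library's total) in Cre-positive libraries (SD, n = 3) and 14.3 ± 4.07 in Cre-negative libraries (SD, n = 4). The next in Cre-negative libraries was Rlbp1 at 2.15 ± 1.25, then Sag at 0.918 ± 0.392, Opn1sw at 0.505 ± 0.753, Gnat1 at 0.365 ± 0.114, Pde6a at 0.333 ± 0.118, Rbp3 at 0.150 ± 0.106 and Rpe65 at 0.142 ± 0.165. Apart from Rcvrn, whose lowest Cre-negative value of 10.9 was above every other member's highest, each neighbour in this order overlapped the next. In Cre-positive libraries Opn1sw (0.621 ± 0.640) came after Rcvrn, followed by Rlbp1 (0.312 ± 0.411), Pde6a (0.18 ± 0.058), Sag (0.171 ± 0.229), Gnat1 (0.106 ± 0.061), Rpe65 (0.090 ± 0.045) and Rbp3 (0.033 ± 0.032). These 7 values overlapped from neighbour to neighbour. Exon lengths are from GENCODE M21 and run from 1040 merged exon bases for Rcvrn to 8904 for Sag. They merge the exons of all annotated transcripts of a gene and can exceed the length of any 1 transcript. The order and the distance of Rcvrn from the rest therefore depend on this divisor. In normalized counts, which do not use it, the Cre-negative means were 152 for Rcvrn and 83.8 for Sag. All 8 genes together took 7.73, 12.1 and 12.9 RPM (recovered reads scaled to the library's total) in Cre-positive 45, 76 and 80, and 32.9, 33.9, 29.3 and 41.4 in Cre-negative 46, 48, 75 and 77. Every Cre-positive library was below every Cre-negative library in this sum, of which Rcvrn alone made up 39.9% to 71.6% in Cre-positive and 33.3% to 50.7% in Cre-negative libraries. Summed normalized counts also separated, at 91.9 to 155.7 in Cre-positive and 310.8 to 419.8 in Cre-negative libraries. How often other sums of 8 genes separate was not tested. Scaling to the library's total, as in RPM and RPKM, moved the median log2 fold change of all tested genes from -0.10 to -0.29.

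**Figure D1:**
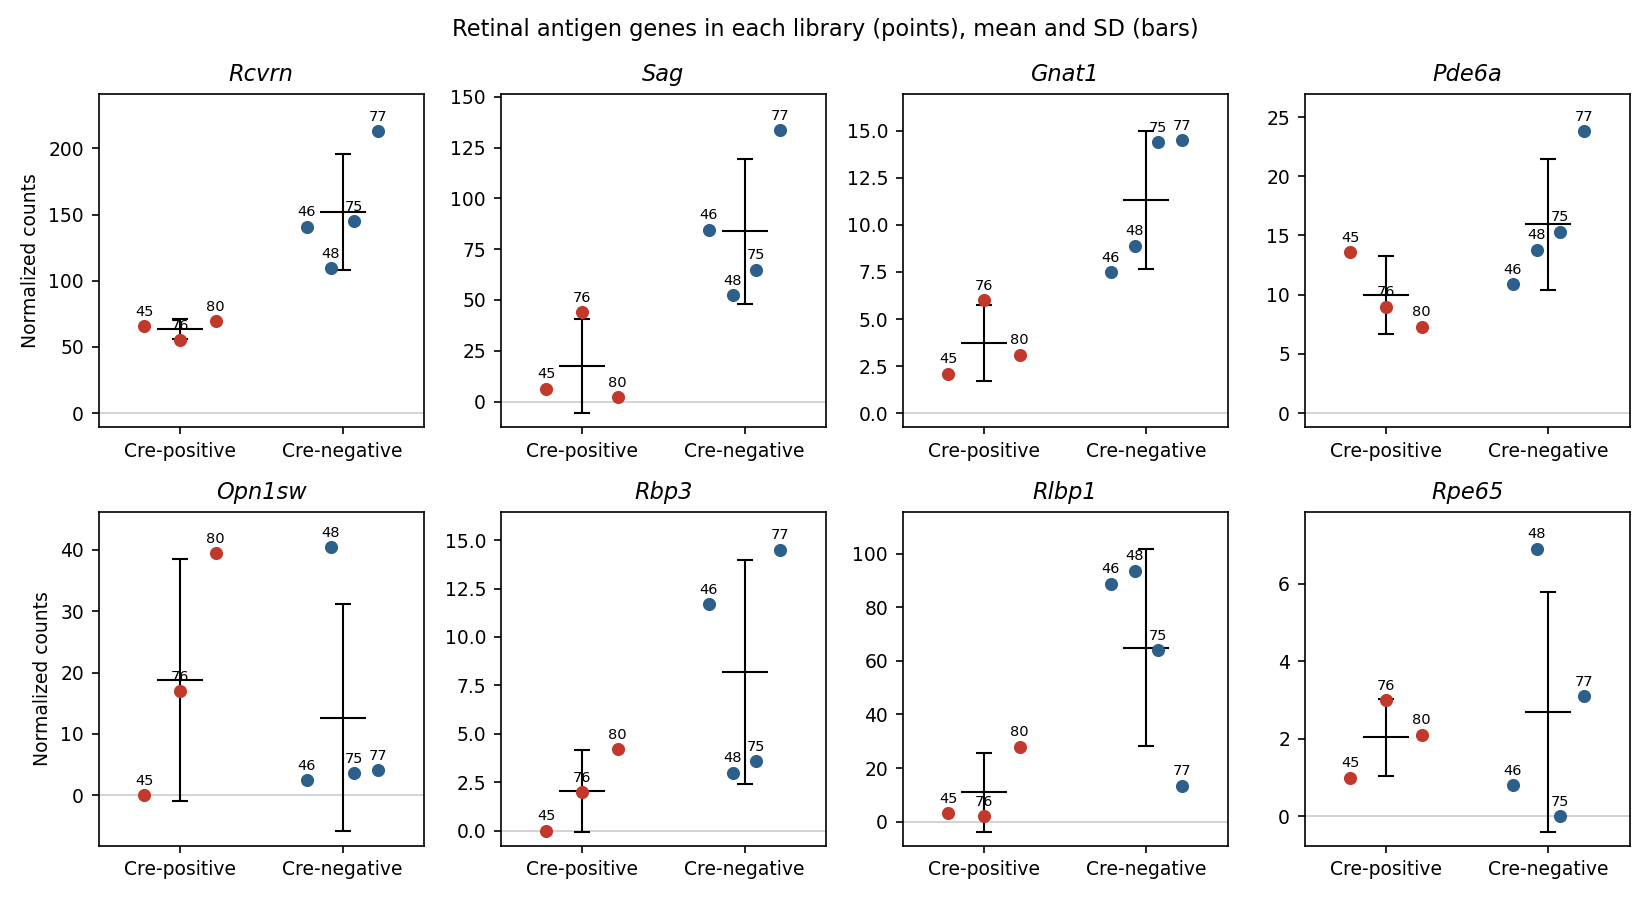
Normalized counts of the 8 retinal antigen genes in each library, with the library number beside each point, on linear axes that differ between panels; Cre-positive libraries are red and Cre-negative ones blue, and bars give the group mean and SD (n = 3 and 4). Rcvrn, Sag and Gnat1 separate the groups, which was also so, in this direction, for 14.5% of all tested genes. Gnat1 had at most 16 reads a library and was not called. Rlbp1 of Cre-negative 77 (13.4) is below that of Cre-positive 80 (28), and Opn1sw is high in single libraries of both groups.

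Recoverin, a calcium sensor that holds back rhodopsin kinase, was lower in every Cre-positive library. Rcvrn (ENSMUSG00000020907, chromosome 11, 67695326 to 67703333) was read in all 7 libraries, with 65.8, 55.1 and 69.5 normalized counts in Cre-positive 45, 76 and 80, and 140.8, 109.3, 145.0 and 213.0 in Cre-negative 46, 48, 75 and 77. The groups did not overlap, which was also so, in this direction, for 14.5% of all tested genes. The Cre-positive mean of 63.5 ± 7.48 was 41.7% of the Cre-negative mean of 152 ± 43.7 (SD, n = 3 and 4). Its log2 fold change was -1.21 (SE 0.34, 95% interval -1.95 to -0.48, limma adjusted p = 0.0327). Cre-positive values spread little, and most of the spread lay with Cre-negative 77. The call did not outlast the loss of most single libraries. Without Cre-negative 46, 75 or 77 the adjusted p was 0.0757, 0.0609 and 0.102, and without Cre-positive 45, 76 or 80 it was 0.0643, 0.0843 and 0.0510, with log2 fold changes of -1.28 to -1.04. It was 0.0353 without Cre-negative 48, 0.0505 without the filter on low values and 0.0550 in limma-voom. Rcvrn lies within the bounds of Glp2r, a gene on the opposite strand with which it shares 0 exon bases.

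Sag, the visual arrestin that binds and silences activated rhodopsin, was reduced most in Cre-positive 45 and 80. Sag (ENSMUSG00000056055, chromosome 1, 87803680 to 87845158) was measured at 6.3, 44.1 and 2.1 normalized counts in Cre-positive 45, 76 and 80, and 84.6, 52.2, 64.9 and 133.4 in Cre-negative 46, 48, 75 and 77. Cre-positive 76 was close to Cre-negative 48, although the groups did not overlap. The latter was also so, in this direction, for 14.5% of all tested genes. The mean was 17.5 ± 23.1 in Cre-positive libraries, 20.9% of the 83.8 ± 35.7 in Cre-negative libraries (SD, n = 3 and 4). The log2 fold change was -2.98 (SE 0.80, 95% interval -4.71 to -1.26, limma adjusted p = 0.0261). It was -4.07 without Cre-positive 76 (adjusted p = 0.00345) and -2.13 without Cre-positive 80 (adjusted p = 0.0774). The call was also lost without Cre-positive 45 (0.0679) and without Cre-negative 46, 48 or 77 (0.0710, 0.0503 and 0.0793), and it held without 75 (0.0484). edgeR's quasi-likelihood test on recovered reads gave -2.23 and did not call it (adjusted p = 0.105).

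None of the opsin, transducin and phosphodiesterase members was called. Gnat1 (ENSMUSG00000034837, chromosome 9, 107674474 to 107679712), the alpha subunit of rod transducin, had 2.1, 6.0 and 3.1 normalized counts in Cre-positive 45, 76 and 80, and 7.5, 8.9, 14.4 and 14.5 in Cre-negative 46, 48, 75 and 77. No Cre-positive library reached the lowest Cre-negative one, as for 14.5% of all tested genes. The values rest on 2 to 6 reads and 9 to 16 reads a library. Its log2 fold change of -1.42 had a 95% interval of -3.16 to 0.33 and did not pass (limma adjusted p = 0.279). Pde6a (ENSMUSG00000024575, chromosome 18, 61220482 to 61289924), the alpha subunit of the rod phosphodiesterase, had 13.6, 9.0 and 7.3 normalized counts in Cre-positive 45, 76 and 80, and 10.9, 13.8, 15.3 and 23.8 in Cre-negative 46, 48, 75 and 77. The groups overlapped, and the log2 fold change was -0.62 (95% interval -2.12 to 0.89, adjusted p = 0.608).

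Opn1sw (ENSMUSG00000058831, chromosome 6, 29376671 to 29388468), the opsin of short-wavelength cones, followed neither group. It had 0, 17.0 and 39.4 normalized counts in Cre-positive 45, 76 and 80, and 2.5, 40.4, 3.6 and 4.1 in Cre-negative 46, 48, 75 and 77. Single libraries of both groups reached about 40, and the rest of the Cre-negative libraries stayed below 5. The log2 fold change was 0.24 (95% interval -2.55 to 3.02, limma adjusted p = 0.930), and its sign turned when single libraries were left out. The 0 reads in Cre-positive 45 allow up to 3.13 normalized counts, for counting error only. Opn1sw shares 397 of its 2557 merged exon bases with Calu on the opposite strand, and reads of the pair cannot be told apart where the counting did not use strand, which the sources used here do not state. Calu had 384.5, 384.5 and 562.6 normalized counts in Cre-positive 45, 76 and 80, and 407.2 to 455.9 in Cre-negative libraries (log2 fold change 0.03, limma adjusted p = 0.945).

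Among the proteins that carry and recycle retinoids, Rlbp1 was low in Cre-positive 45 and 76, and Rbp3 and Rpe65 had few reads in every library. Rlbp1 (ENSMUSG00000039194, chromosome 7, 79374870 to 79387048) encodes the cellular retinaldehyde-binding protein of pigment epithelium and Müller glia. It had 3.1, 2.0 and 28 normalized counts in Cre-positive 45, 76 and 80, and 88.8, 93.6, 64.0 and 13.4 in Cre-negative 46, 48, 75 and 77. Cre-positive 80 lay above Cre-negative 77, so the groups overlapped. The mean was 11 ± 14.7 in Cre-positive libraries, 17.0% of the 65.0 ± 36.7 in Cre-negative ones (SD, n = 3 and 4). Its log2 fold change of -2.90 (SE 0.91, 95% interval -4.86 to -0.94) lay just outside the threshold, with a limma adjusted p of 0.0504. It passed without Cre-positive 80 (-3.92, adjusted p = 0.0126), without Cre-negative 77 (-3.53, 0.0257), with a pseudocount of 5 (0.0497), without the filter (0.0399), with library total scaling (0.0361) and in DESeq2 (0.0227). It did not pass under the other 10 alternatives. Their adjusted p ran from 0.0515 with TMM scaling to 0.151 without Cre-positive 76 (-2.28), and it was 0.100 in edgeR, 0.129 in limma-voom and 0.103 to 0.140 without Cre-negative 46, 48 or 75 or Cre-positive 45.

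Rbp3 (ENSMUSG00000041534, chromosome 14, 33954022 to 33964216), the retinoid carrier of the space between photoreceptors and pigment epithelium, had 0, 2.0 and 4.2 normalized counts in Cre-positive 45, 76 and 80, and 11.7, 3.0, 3.6 and 14.5 in Cre-negative 46, 48, 75 and 77. Cre-negative 48 and 75 were as low as Cre-positive 76 and 80. The highest library held 14 reads. The log2 fold change was -1.63 with a 95% interval of -3.81 to 0.54 and did not pass (limma adjusted p = 0.316). Its mean of 5.57 normalized counts lay just above the minimum of 5 for testing, and its interval holds both 0 and the change fitted for Rcvrn. Rpe65 (ENSMUSG00000028174, chromosome 3, 159599175 to 159625321), the isomerase of the pigment epithelium, was below that minimum with a mean of 2.41 and was not tested. It had 1.0, 3.0 and 2.1 normalized counts in Cre-positive 45, 76 and 80, and 0.8, 6.9, 0 and 3.1 in Cre-negative 46, 48, 75 and 77. These are at most 7 reads a library, and without the filter its log2 fold change was 0.08 (limma adjusted p = 0.972).

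**Figure D2:**
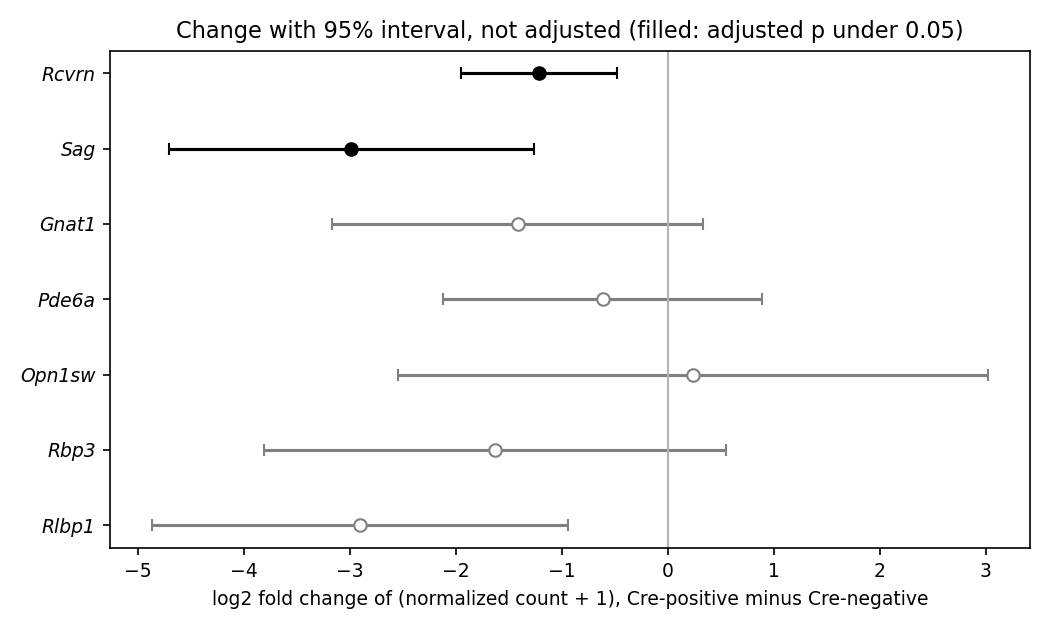
Log2 fold change of (normalized count + 1), Cre-positive minus Cre-negative, for the 7 tested antigen genes, with 95% intervals that are not adjusted for multiple tests; filled points passed the limma adjusted p of 0.05. Rcvrn (-1.21) and Sag (-2.98) passed, Rlbp1 (-2.90) missed with an adjusted p of 0.0504, and the interval of Opn1sw runs from -2.55 to 3.02.

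The antigens did not vary as 1 unit over the libraries. Cre-negative 77 had the highest normalized counts of 5 members, Rcvrn, Sag, Gnat1, Pde6a and Rbp3, but the lowest Cre-negative value of Rlbp1. Cre-negative 48 was highest for the other 3, Opn1sw, Rlbp1 and Rpe65. Among Cre-positive libraries, 76 kept the most Sag and Gnat1, and 80 the most Rcvrn, Opn1sw, Rbp3 and Rlbp1. Cre-positive 45 had no read of Rbp3 or Opn1sw, and reads of 6 of the 8 genes were found there. All 8 were found in Cre-positive 76 and 80 and in Cre-negative 46, 48 and 77, and 7 in Cre-negative 75. The labels do not say what the library number marks. Within the numbers 45 to 48, Sag had 6.3 in the Cre-positive library and 84.6 and 52.2 in the Cre-negative ones, and within 75 to 80 it had 44.1 and 2.1 against 64.9 and 133.4. Rcvrn had 65.8 against 140.8 and 109.3 in the lower range, and 55.1 and 69.5 against 145.0 and 213.0 in the upper one. Rlbp1 had 3.1 against 88.8 and 93.6 in the lower range, and overlapped in the upper one, with 2.0 and 28 against 64.0 and 13.4.

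Promoter sequence is shown for Sag, which was called lower, for Rlbp1, just outside the threshold, for Rbp3, the uveitis antigen named above, and for Opn1sw, which followed neither group. Each line gives the 250 bases before the RefSeq start on GRCm38.p6, 5′ to 3′ on the gene's strand, and RefSeq promoters were found for 5 members. Capitals mark TAATCC, the core that the photoreceptor homeodomain factors Crx and Otx2 bind, and CAATTA, a homeodomain core, both searched on both strands, so that TAATCC may read GGATTA.
Sag, chr1:87803430-87803679, plus strand: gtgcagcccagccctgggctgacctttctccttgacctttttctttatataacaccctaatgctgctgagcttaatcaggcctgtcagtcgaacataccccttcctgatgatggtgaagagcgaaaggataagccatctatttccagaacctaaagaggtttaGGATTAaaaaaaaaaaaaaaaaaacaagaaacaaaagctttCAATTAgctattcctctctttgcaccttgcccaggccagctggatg
Rbp3, chr14:33953753-33954002, plus strand: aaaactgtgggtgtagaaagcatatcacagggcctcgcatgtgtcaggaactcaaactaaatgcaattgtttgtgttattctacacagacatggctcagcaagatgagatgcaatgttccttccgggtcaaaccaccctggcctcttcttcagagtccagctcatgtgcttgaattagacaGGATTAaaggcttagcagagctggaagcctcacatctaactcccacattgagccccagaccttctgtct
Rlbp1, chr7:79387028-79387277, minus strand: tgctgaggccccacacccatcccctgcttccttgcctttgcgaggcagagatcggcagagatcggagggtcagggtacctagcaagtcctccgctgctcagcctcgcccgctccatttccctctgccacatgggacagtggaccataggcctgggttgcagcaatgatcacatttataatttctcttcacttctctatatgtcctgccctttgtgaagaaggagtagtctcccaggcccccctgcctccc
Opn1sw, chr6:29380514-29380763, minus strand: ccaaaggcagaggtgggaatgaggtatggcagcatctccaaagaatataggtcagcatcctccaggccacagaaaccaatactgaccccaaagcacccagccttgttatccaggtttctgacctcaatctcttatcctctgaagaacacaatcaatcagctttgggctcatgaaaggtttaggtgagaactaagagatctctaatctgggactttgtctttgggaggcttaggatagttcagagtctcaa
TAATCC was matched 1 time in Sag and 1 time in Rbp3, with its first base 87 and 69 bases before the start, and the CAATTA match in Sag began 46 bases before it. Rpe65 also had 1 TAATCC match, 42 bases before its start. Of 32851 RefSeq promoter windows of the same length, 6.25% held TAATCC and 7.17% held CAATTA. Sag and Rbp3 both held TAATCC and had fitted log2 fold changes of -2.98 and -1.63, of which only that of Sag was called. Rpe65, which also held TAATCC, was not tested, and its log2 fold change without the filter was 0.08. Rlbp1 (-2.90, not called) and Opn1sw (0.24, not called) held neither motif. Rcvrn, the other member called lower, had no promoter to search. Any link between the motifs and the changes was not tested. Crx itself had 18.8, 7.0 and 1.0 normalized counts in Cre-positive 45, 76 and 80, and 21.8, 5.9, 5.4 and 6.2 in Cre-negative 46, 48, 75 and 77 (limma adjusted p = 0.815). Otx2 had 0, 4.0 and 0 in Cre-positive libraries and 0.8, 12.8, 14.4 and 5.2 in Cre-negative ones (adjusted p = 0.261). Rcvrn, Gnat1 and Pde6a are named only.

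Beyond the 8 antigens, 69 of 70 genes in 6 lists of retinal genes were in the table and 63 were tested. Of these, 7 were called lower (11.1%, beside 9.11% of all tested genes) and 2 higher (3.17%, beside 4.66%), so both shares were near those of all genes. Their median log2 fold change was -0.59, and 45 were below 0. The 2 lowest fitted changes of the 63 were those of Gngt1 and Lrat. Gngt1, the gamma subunit of rod transducin and thus a partner of Gnat1, had 0, 2.0 and 2.1 normalized counts in Cre-positive 45, 76 and 80, and 76.6 to 200 in the Cre-negative libraries. It was nearly lost from every Cre-positive library (log2 fold change -5.99, SE 0.66, limma adjusted p = 1.64e-04). Cngb1, the beta subunit of the rod cGMP-gated channel, had 74.2, 24.0 and 24.9 normalized counts in Cre-positive 45, 76 and 80, and 132.0 to 261.2 in Cre-negative libraries (log2 fold change -2.25, adjusted p = 0.00592). The groups of both genes did not overlap, which was also so, in this direction, for 14.5% of all tested genes. In the rod phototransduction list 2 of 15 genes were called, both lower, with a list median of -1.0, and in the cone list 0 of 8 by limma (median -0.71).

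The list of visual cycle and pigment epithelium genes also holds pigment cell genes such as Tyr and Pmel. Of its 15 tested genes, limma called 3 lower (20%, beside 9.11% of all tested genes) and none higher (beside 4.66%). Lrat, the acyltransferase that makes the retinyl esters on which Rpe65 acts, had 0, 13.0 and 8.3 normalized counts in Cre-positive 45, 76 and 80, and 448.3, 160.6, 192.8 and 213.0 in Cre-negative 46, 48, 75 and 77 (log2 fold change -5.53, SE 0.79, limma adjusted p = 7.74e-04). The highest Cre-positive value, 13.0, was far below the lowest Cre-negative one, 160.6. Groups that did not overlap in this direction were found for 14.5% of all tested genes. Stra6, the membrane receptor that takes up retinol, fell to 186.0, 161.2 and 91.3 in Cre-positive 45, 76 and 80, against 261.5 to 422.9 in Cre-negative libraries (-1.26, adjusted p = 0.0159; 0.0503 without Cre-negative 77 and 0.0523 without Cre-positive 80). Abca4, the retinoid transporter of photoreceptor discs, had 51.2, 9.0 and 35.3 against 62.2 to 154.6 (-1.93, adjusted p = 0.0476). Leaving out Cre-negative 46, 48 or 77, or either of Cre-positive 76 and 80, ended its call (adjusted p = 0.0599 to 0.146), edgeR gave 0.0704, and its log2 fold change without Cre-positive 76 was -1.22. The median of the 15 genes was -0.54.

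Photoreceptor structure genes moved in both directions. Aipl1, a chaperone that photoreceptor phosphodiesterase needs, had 1.0, 6.0 and 9.3 normalized counts in Cre-positive 45, 76 and 80, and 45 to 90.6 in the Cre-negative libraries (log2 fold change -3.78, limma adjusted p = 0.00336), or -3.09 without Cre-positive 45. Cdhr1, a cadherin of photoreceptor outer segments, rose to 2893.4, 3272.6 and 3433.8 in Cre-positive 45, 76 and 80, against 1405.6 to 1886.4 in Cre-negative libraries (0.92, adjusted p = 0.00276). Prph2, a tetraspanin of outer segment discs, had 65.8, 88.1 and 69.5 in Cre-positive libraries and 33.5, 15.8, 15.3 and 23.8 in Cre-negative ones (1.77, adjusted p = 0.0351). The Prph2 call held with Cre-negative 46 left out but not with any other library left out (0.0600 to 0.108), nor with library total scaling (0.0561), whereas Cdhr1 was called under every alternative run. This list of 11 tested genes had 1 lower and 2 higher calls and a median of 0.11. Those calls were 9.09% and 18.2% of the list, beside 9.11% and 4.66% of all tested genes. Of 12 retinal transcription factors only Vsx1, of bipolar cells, was called, with 1.0, 3.0 and 2.1 normalized counts in Cre-positive 45, 76 and 80, and 37.7, 19.7, 18.9 and 7.2 in Cre-negative 46, 48, 75 and 77 (-2.70, adjusted p = 0.0497). That call held with Cre-negative 77 left out and ended with each other library left out (0.0717 to 0.141), and over the settings that keep all libraries its adjusted p ran from 0.00802 in DESeq2 to 0.14 in limma-voom. Neither of the 2 tested opsins of the last list was called.

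**Figure D3:**
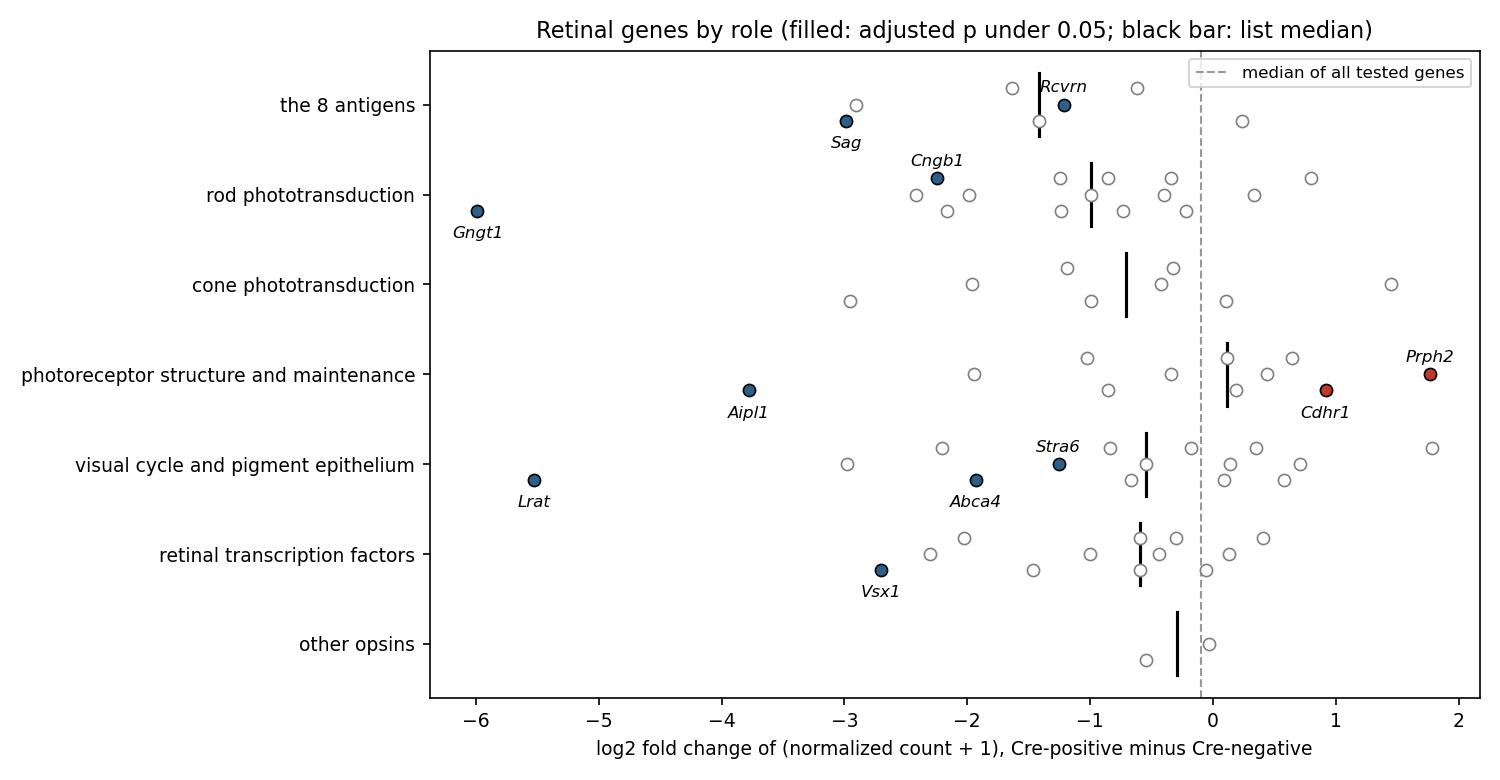
Log2 fold change of (normalized count + 1), Cre-positive minus Cre-negative, for each tested gene of the 8 antigens and of 6 other retinal lists; filled points passed the limma adjusted p of 0.05 (blue lower, red higher in Cre-positive), black bars are list medians and the dashed line is the median of all tested genes (-0.10). Gngt1 (-5.99) and Lrat (-5.53) lie furthest to the left, and only the photoreceptor structure list had limma calls on both sides.

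**Figure D4:**
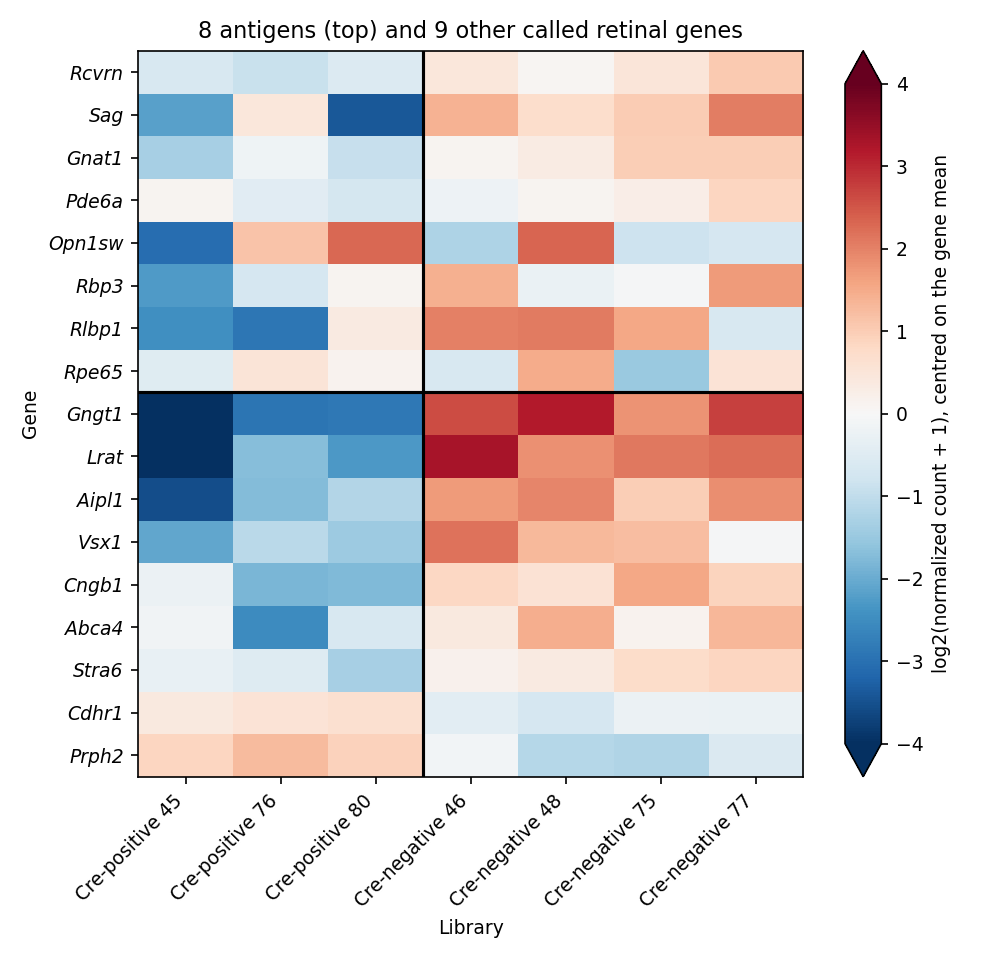
Log2(normalized count + 1) of the 8 antigens (above the line) and the 9 other called retinal genes, centred on each gene's mean over the 7 libraries; colours saturate at 4 log2 units. Gngt1 and Lrat are low in all 3 Cre-positive libraries, while Opn1sw and Rpe65 cross the groups.

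The genes whose levels ran closest to each member over the 7 libraries were found by the mean absolute difference of centred log2(normalized count + 1) among all tested genes, which mostly picks genes that share its group difference. For Rcvrn these were Plscr1, Calcb and Trpm2, at 0.09, 0.12 and 0.12 log2 units. For Sag they were Cd200r3, Gm48961 and Gm11544 (0.29 to 0.32), and for Rlbp1 they were Leap2, Tbx18 and Rnf212 (0.37 to 0.39). Gnat1 ran closest to Gm42729, Sparc and Gm44759 (0.18 to 0.22), Pde6a to Cul9, Rtn4ip1 and Rpusd1 (0.12 to 0.13), and Rbp3 to Ermap, Olfr1501 and Gm32592 (0.21 to 0.25). Opn1sw had no close match, since its nearest genes, 5033417F24Rik, CT025551.1 and Mkrn3, differed by 0.56 to 0.61. Of these nearest genes, Plscr1, Calcb, Cd200r3, Gm48961, Sparc, Leap2 and Rnf212 were themselves called lower. None of the 3 nearest genes of any member was another antigen. These were drawn from 22878 tested genes, of which 7 were antigens, so this does not show whether the antigens varied together.

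The authors' deposited table gives its comparison as Cre-negative over Cre-positive, so that positive values are lower in Cre-positive libraries. In the authors' deposited table the log2 fold change was 1.26 for Rcvrn (adjusted p = 0.00264), 2.26 for Sag (0.0200) and 2.56 for Rlbp1 (0.0194), each under 0.05. The authors' deposited table gives adjusted p-values of 0.241 for Gnat1, 0.305 for Rbp3, 0.565 for Pde6a and 0.809 for Opn1sw, and lists none for Rpe65. For Lrat it gives a log2 fold change of 5.15 and no adjusted p, so Lrat has no call there. Other genes of the lists, such as Ttr, Pde6h, Tulp1, Gngt2 and Rgs9, also have none. Under 0.05 in that comparison, the cone list and the visual cycle list each held genes in both directions. Which lists had calls on both sides thus depended on the test.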

How the data were processed

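RNA-seq of 7 libraries was analysed from 1 deposited table. The submitters' processing notes name STAR 2.7.9a, DESeq2 and the build GRCm39. Per the file headers, the authors deposited normalized counts (a signal: counts divided by a size factor per library), variance-stabilized log2 values, the GC percent of each gene, and their comparison as log2 fold change, fold ratio, p-value and adjusted p-value. The stabilized values, GC percent and ratio were not used. Gene positions equal GENCODE M21 (GRCm38) for 95.2% of 52403 shared genes, and are given on GRCm38 as deposited. The counting tool and its strand setting were not given in the sources used here.

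Read numbers were recovered by multiplying back the deposited values (100% whole within 0.0501). Recovered totals were 9815958 to 12599078 reads. The limit of 3 reads for a count of 0 covers counting error only; the 95% intervals of fold changes are limma's, from the spread between libraries.

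The 22878 genes averaging 5 or more normalized counts were tested with limma (eBayes with trend) on log2(normalized count + 1), fitting genotype alone, with Benjamini-Hochberg adjustment over all of them. The added 1 tends to shrink changes of low genes, but a difference of mean logs can exceed the change of the means. For Sag limma gave -2.98 and DESeq2 -2.26, and for Rlbp1 they gave -2.90 and -2.56. Rcvrn, Rbp3, Gnat1, Pde6a and Opn1sw had larger fitted changes in DESeq2 than in limma. Alternatives were edgeR, DESeq2 and limma-voom on recovered reads, other pseudocounts, filter, scaling, a term for the label number range, and leaving out each library; limma alternatives other than the filter used the same genes. The fits were tested on simulated data. The 8 genes and the lists were chosen with earlier results of these data known. Named genes are the 8, called genes of the retinal lists, Ikzf1, Pou2f3, Aire and Fezf2, and the 3 nearest genes of each tested antigen. Calu, Crx and Otx2 were named after their values were seen. Fits used DESeq2 1.42.0, edgeR 4.0.16 and limma 3.58.1 in R 4.3.3. Tables and figures used matplotlib 3.10.9, scipy 1.17.1, pandas 2.3.3 and numpy 2.4.6 in Python 3.11.15.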

Additional observations from a re-analysis of the deposited data

Results flagged for a closer look

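Opn1sw in Cre-negative 48 stood far from the other libraries of its group, at 40.4 normalized counts beside 2.5, 3.6 and 4.1, with a gap to the nearest of 0.958 of the group's range, past Dixon's 95% limit for 4 libraries. It was the only value apart in the 17 Cre-negative groups of values looked at (the 8 antigens and 9 called retinal genes), and chance marks about 1 in 20 such groups. Cre-positive 80 reached a like level (39.4), in a group of 3 to which this check was not applied.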

How the results depend on the processing

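No paired analysis was possible because no label number is shared between the groups. The count of antigens called lower was 2, and it was 1 in edgeR (Rcvrn), 1 in limma-voom (Sag), 2 to 3 under the other 7 settings and 0 to 1 when single libraries were left out. No antigen was called higher under any of the 16 alternatives. Other retinal genes called lower numbered 7, with 12 in DESeq2 and 5 to 7 with single libraries left out. Those called higher numbered 2, with 4 in DESeq2, 1 with library total scaling, and 1 to 2 with single libraries left out. DESeq2 also called more of all genes, with 2839 lower and 1475 higher of 24571, beside 2084 and 1066 of 22878 in the main fit. Library total scaling moved the median log2 fold change over all tested genes to -0.29 (-0.10 with the authors' scaling), with 583 higher and 2629 lower calls in place of 1066 and 2084. With single libraries left out, 590 to 1004 genes were called higher and 1309 to 1740 lower. Opn1sw changed sign, from 0.24, to -0.14 and -0.0077 without Cre-negative 46 and 75, and to -0.26 and -0.85 without Cre-positive 76 and 80, and was 1.82 without Cre-positive 45. Fits without a library have fewer samples; the cause of the other shifts was not tested. Sag, Rcvrn, Rlbp1, Gnat1 and Pde6a stayed below 0 under all 16 alternatives and Rbp3 under the 14 that gave it a value. Gngt1, Lrat, Aipl1, Cngb1 and Cdhr1 were called under all 16. Depth limits Rbp3, Gnat1 and Rpe65, at no more than 16 reads a library.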
